A study of Homo sapiens with 4 samples.

Results

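Single cells of the neuroblastoma line CHP134 that had been given 13-cis-retinoic acid (13cRA) were divided by their ENPP2 count, and cells high in ENPP2 were set against cells with none. Cells of the 13cRA and the 13cRA+doxazosin library entered if they had at least 34000 counts, at least 500 genes and at most 25% of counts from mitochondrial genes. A cell was ENPP2-high at 100 CPM or more (CPM, ENPP2 counts scaled to a total of 1000000 counts in the cell), and ENPP2-negative at an ENPP2 count of 0. The choice left 404 cells, 290 ENPP2-high and 114 ENPP2-negative, of 519 treated cells that passed these limits and of 1287 cells in the table. Another 115 treated cells lay between the classes and are called intermediate. The members were chosen by their ENPP2 counts, so the level of ENPP2 is given as a description and was not tested.

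The study measured whole transcript counts in single CHP134 cells after 24 h of treatment, with 1 library per treatment. The 4 libraries had 13cRA at 5 µM with doxazosin at 10 µM, 13cRA at 5 µM alone, doxazosin at 10 µM alone, and the solvent DMSO at 0.04%. Doxazosin blocks alpha-1 adrenergic receptors. All cells came from CHP134, a MYCN-amplified line grown from a tumour of the left adrenal gland, so every comparison is within 1 cell line. The 13cRA and the 13cRA+doxazosin library served as the 2 replicates of each ENPP2 class, and they differ in doxazosin as well as in library. Nothing in the labels says that they came from separate cultures, and the p-values do not measure a spread between cultures. Library is a block in the fit, so the spread between libraries is taken out as well. The p-values measure only how evenly the differences between classes repeat in these 2 libraries, with most of the spread borrowed from other genes. Between the ENPP2 classes the spread rests on 2 degrees of freedom of the gene itself and 10.0 borrowed from other genes.

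ENPP2 encodes autotaxin, a secreted enzyme that cuts lysophosphatidylcholine to lysophosphatidic acid, a lipid signal read by G protein-coupled receptors of the LPAR family. Retinoic acid enters the nucleus and binds retinoic acid receptors, which pair with retinoid X receptors on DNA and switch on genes that carry their response elements. In neuroblastoma cells retinoids are known to slow division and to push cells toward neuronal differentiation, and 13cRA is used in the treatment of high-risk disease.

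The response element is best known from the RARB gene, which encodes retinoic acid receptor beta and is the standard readout of this pathway. Of 4 RARB promoters in RefSeq, 1 held a match in the search described below, and that promoter is shown. RefSeq (GRCh38.p14) places it on the plus strand at chr3:25428013-25428312, 250 bases before and 50 bases after the start of transcription. The capitals mark GTTCACCGAAAGTTCA, bases 199 to 214 of the window.
RARB promoter: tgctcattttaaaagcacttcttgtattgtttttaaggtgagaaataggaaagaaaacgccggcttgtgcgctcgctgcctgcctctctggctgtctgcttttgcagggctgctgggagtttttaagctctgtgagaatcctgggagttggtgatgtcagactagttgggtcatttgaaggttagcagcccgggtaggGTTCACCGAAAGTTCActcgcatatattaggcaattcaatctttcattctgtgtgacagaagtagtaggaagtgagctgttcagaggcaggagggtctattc
The search was for GGTCA or GTTCA followed, after any 6 bases, by GGTCA or GTTCA on either strand, and overlapping matches counted once per promoter. A match lay in 61 of 35116 RefSeq promoters of this length (0.174%). Of the genes that differed between the ENPP2 classes, 15 had promoters in the table, and 0 of their 26 promoters held a match. The match in the RARB promoter is a description of letters, not evidence of binding.

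Depth differed between the libraries. Among cells with at least 34000 counts the median was 73430 counts per cell in the 13cRA library, 234336 in the 13cRA+doxazosin library, 178111 in the doxazosin library and 130716 in the DMSO library. Every cell was therefore thinned at random to 34000 counts before any gene other than ENPP2 was compared, and CPM below refers to these thinned counts summed over the cells of a class. Markers of noradrenergic neuroblastoma were present in every class, with GATA3 at 247 to 485 CPM and HAND2 at 52.1 to 138 CPM. The catecholamine enzymes TH and DBH and the Schwann markers SOX10 and S100B were at or near 0 CPM. The whole Schwann and crest precursor list summed to 45.5 CPM in ENPP2-high, 19.9 CPM in ENPP2-negative and 6.55 CPM in DMSO cells. With doxazosin these sums were 26.3, 6.62 and 6.51 CPM. Its member SOX9 had 27.7 CPM in ENPP2-high and 9.14 CPM in ENPP2-negative cells, and 15.4 and 0.735 CPM with doxazosin (log2 2.19, adjusted p = 0.387, edgeR). Summed over each list, leukocyte markers gave 0.635 to 3.58 CPM, epithelial markers 2.06 to 9.14 CPM and endothelial markers 5.15 to 28.4 CPM. Fibroblast markers gave 56.4 to 97.8 CPM. The highest endothelial sum lay in the ENPP2-high cells of the 13cRA library, where CLDN5 alone had 25.4 CPM. The part of these markers in the results was not tested.

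ENPP2 had a median of 675 CPM in the 139 ENPP2-high cells of the 13cRA library (range 108 to 3439) and 471 CPM in the 151 ENPP2-high cells of the 13cRA+doxazosin library (range 101 to 3838). The high class held 55.8% of the 249 cells of the 13cRA library (exact 95% binomial interval 49.4 to 62.1) and 55.9% of the 270 cells of the 13cRA+doxazosin library (49.8 to 61.9). No cell was ENPP2-high among 235 doxazosin cells, which allows a share of up to 1.28%, or among 328 DMSO cells, which allows up to 0.915%. These intervals and limits cover counting error only. The shares of the high class in the treated libraries lay within each other's intervals. With no minimum of counts, 1 of 353 DMSO cells was ENPP2-high.

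The ENPP2-negative class depended on depth. It held 74 cells (29.7%) in the 13cRA library and 40 cells (14.8%) in the deeper 13cRA+doxazosin library, while on thinned counts the shares were 33.7% and 31.9%. At the median depth of the negative cells a count of 0 allows ENPP2 at up to 49.3 CPM in the 13cRA library and 13.7 CPM in the 13cRA+doxazosin library. Cells shallower than the median allow more, and the limits treat each read as an independent count. Negative therefore means a count of 0 at the depth of the cell, not absent. At the 100 CPM limit the nearest cells lay at 91.7 and 97.8 CPM below and 108 and 110 CPM above it in the 13cRA library, and at 98.6 and 99.2 CPM below and 101 and 101 CPM above it in the 13cRA+doxazosin library. The treated cells thus ran on past the limit without a gap, with 10 and 20 cells at 50 to 100 CPM and 21 and 21 cells at 100 to 200 CPM.

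**Figure D1:**
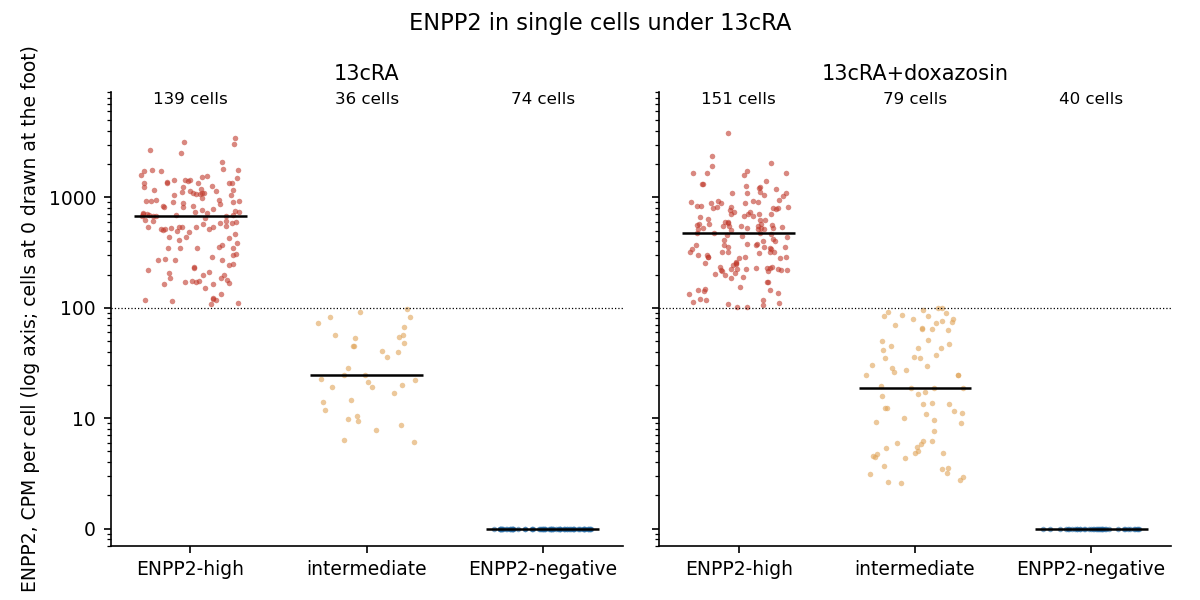
ENPP2 per cell (CPM, log axis, cells at a count of 0 drawn at the foot) in the 13cRA and the 13cRA+doxazosin library, 1 point per cell, with a bar at the median of each class and a dotted line at 100 CPM. The medians of the ENPP2-high cells are 675 and 471 CPM.

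Between ENPP2-high and ENPP2-negative cells 26 of 7844 genes tested differed at an adjusted p below 0.05 (0.331%, edgeR quasi-likelihood test with Benjamini-Hochberg adjustment). Of these, 23 were higher in ENPP2-high cells (0.293%) and 3 were lower (0.0382%). The genes that were higher fall by role into secreted and signalling proteins, actin and membrane proteins, transcription factors, metabolic enzymes and mitochondrial transcripts. Those that were lower include a calcium-binding protein and a ribosomal protein. On unthinned counts 0 genes passed, with 402 at an unadjusted p below 0.05 in edgeR, while DESeq2 on the thinned counts passed 45. In cells called S or G2M, an alternative chosen after seeing the data, 4 passed. RCN1, RGS16, SPP1, TBX2, LINC00682, RPL23A and the mitochondrial genes each passed in only 5 to 8 of 16 alternative settings.

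**Figure D2:**
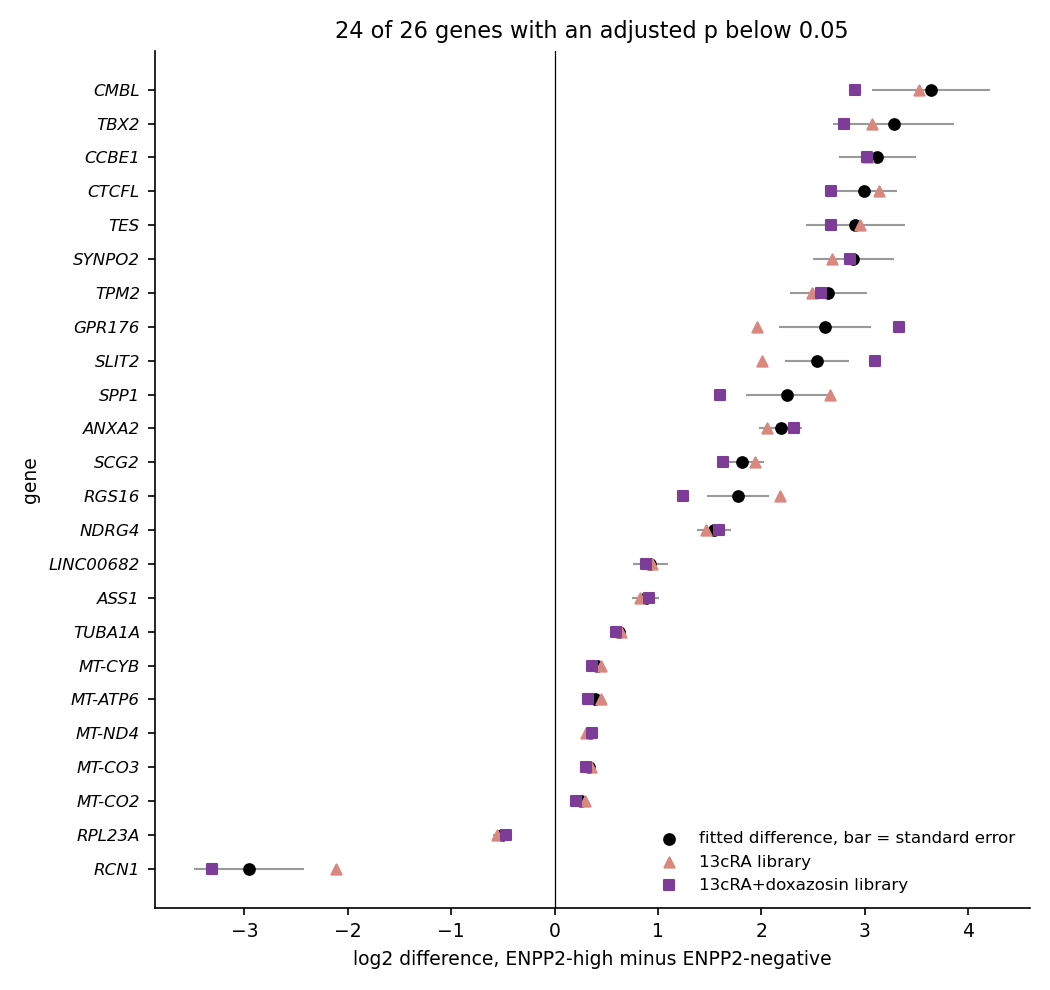
The log2 difference, ENPP2-high minus ENPP2-negative, of 24 of the 26 genes that passed, on the x axis, 1 gene per line. Black points with bars are the fitted difference and its standard error, triangles the 13cRA library, squares the 13cRA+doxazosin library. In every gene drawn both libraries lie on the same side of 0.

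Among the genes that passed, SCG2, SLIT2, CCBE1 and SPP1 encode secreted proteins and RGS16 and GPR176 signalling proteins. Not every secreted gene was higher, since STC1 had a log2 difference of -1.24 (adjusted p = 0.367, edgeR). SCG2, a granin stored in secretory vesicles, had 324 CPM in ENPP2-high cells and 83.9 CPM in ENPP2-negative cells of the 13cRA library, and 216 CPM in ENPP2-high and 69.1 CPM in ENPP2-negative cells of the 13cRA+doxazosin library. The difference was 1.81 on the log2 scale (SE 0.22, 3.50-fold, adjusted p = 0.00299, edgeR). SCG2 was counted in 84.2% of ENPP2-high cells against 52.7% of ENPP2-negative cells in the 13cRA library.

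SLIT2, a guidance ligand of the ROBO receptors, had 204 CPM in ENPP2-high and 50.1 CPM in ENPP2-negative cells of the 13cRA library, and 146 CPM in ENPP2-high and 16.2 CPM in ENPP2-negative cells of the combination, a 5.81-fold difference (log2 2.54, SE 0.31, adjusted p = 0.00299). CCBE1, a secreted matrix protein that helps to activate VEGF-C, had 111 CPM in ENPP2-high against 12.7 CPM in ENPP2-negative cells of the 13cRA library, and 72.7 CPM in ENPP2-high and 8.09 CPM in ENPP2-negative cells in the combination (log2 3.12, SE 0.37, adjusted p = 0.00299). SLIT2 and CCBE1 were each higher in ENPP2-high cells in both libraries. RGS16, which turns off G protein signalling, had 173 CPM in ENPP2-high against 37.4 CPM in ENPP2-negative cells of the 13cRA library, and 81.4 CPM in ENPP2-high and 33.8 CPM in ENPP2-negative cells in the combination (log2 1.78, SE 0.30, adjusted p = 0.0288).

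SPP1, the secreted phosphoprotein osteopontin, was at 85.7 CPM in ENPP2-high and 12.7 CPM in ENPP2-negative cells of the 13cRA library and at 48.7 CPM in ENPP2-high and 15.4 CPM in ENPP2-negative cells of the combination (log2 2.25, SE 0.40, adjusted p = 0.0382). The orphan receptor gene GPR176 had 58.4 CPM in ENPP2-high against 14.3 CPM in ENPP2-negative cells, and 61.0 CPM in ENPP2-high and 5.15 CPM in ENPP2-negative cells with doxazosin (log2 2.61, SE 0.44, adjusted p = 0.0288). NDRG4, a member of the NDRG family found in neurons, had 472 CPM in ENPP2-high against 171 CPM in ENPP2-negative cells, and 347 CPM in ENPP2-high and 115 CPM in ENPP2-negative cells with doxazosin (log2 1.54, SE 0.17, adjusted p = 0.00209). Each of these 3 genes was higher in ENPP2-high cells in both libraries.

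Of the retinoid response list, 13 of 34 genes were tested, of which 1 passed by edgeR and 2 by DESeq2. The list's median was 0.49 on the log2 scale and 10 of the 13 were positive, against 3952 positive of 7844 and a median of 0.00 over all genes. CRABP2, which carries retinoic acid to the nucleus, had 51.0 CPM in ENPP2-high and 13.1 CPM in ENPP2-negative cells, and 53.6 CPM in ENPP2-high and 13.2 CPM in ENPP2-negative cells with doxazosin, with a log2 difference of 1.98 and an adjusted p of 0.0603, which missed the threshold. RARB had 23.3 CPM in ENPP2-high and 13.1 CPM in ENPP2-negative cells, and 32.3 CPM in ENPP2-high and 2.21 CPM in ENPP2-negative cells with doxazosin (log2 2.01, adjusted p = 0.446). RARB therefore differed unequally in the libraries, and its difference did not pass the threshold. CYP26A1, the enzyme that breaks retinoic acid down, was at 0 counts in every class.

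The actin, adhesion and membrane genes ANXA2, TPM2, SYNPO2 and TES were higher in ENPP2-high cells, and so was the neuronal tubulin gene TUBA1A. ANXA2, a calcium-dependent membrane and actin binder, had 340 CPM in ENPP2-high and 81.1 CPM in ENPP2-negative cells of the 13cRA library, and 391 CPM in ENPP2-high and 77.9 CPM in ENPP2-negative cells of the combination. This 4.55-fold difference (log2 2.19, SE 0.21) had the lowest adjusted p of the comparison, 0.00154, and the classes lay far apart in both libraries. TPM2, a tropomyosin that lines actin filaments, had 87.2 CPM in ENPP2-high against 14.7 CPM in ENPP2-negative cells, and 66.2 CPM in ENPP2-high and 10.3 CPM in ENPP2-negative cells with doxazosin (log2 2.65, SE 0.37, adjusted p = 0.00885).

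SYNPO2, an actin-bundling protein, had 115 CPM in ENPP2-high and 17.1 CPM in ENPP2-negative cells, and 118 CPM in ENPP2-high and 15.4 CPM in ENPP2-negative cells of the combination (log2 2.89, SE 0.39, adjusted p = 0.00781). TES, a LIM protein of focal adhesions, had 124 CPM in ENPP2-high and 15.1 CPM in ENPP2-negative cells, and 109 CPM in ENPP2-high and 16.2 CPM in ENPP2-negative cells of the combination (log2 2.91, SE 0.48, adjusted p = 0.024). TUBA1A had 3866 CPM in ENPP2-high and 2484 CPM in ENPP2-negative cells, and 4972 CPM in ENPP2-high and 3302 CPM in ENPP2-negative cells with doxazosin (log2 0.62, SE 0.07, adjusted p = 0.00299). ANXA2 and TUBA1A have near-identical pseudogenes or paralogs whose reads the counting could have split, so their levels are less certain. Of the 7 tested genes of the mesenchymal state list 1, ANXA2, passed, and the list's median was 0.10.

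Among transcription factors, CTCFL and TBX2 were higher in ENPP2-high cells. CTCFL, the germ-line relative of the chromatin insulator CTCF, had 148 CPM in ENPP2-high and 15.9 CPM in ENPP2-negative cells of the 13cRA library, and 118 CPM in ENPP2-high and 17.6 CPM in ENPP2-negative cells of the combination (log2 3.0, SE 0.32, 7.99-fold higher, adjusted p = 0.00209). It was counted in 65.5% of ENPP2-high and 17.6% of ENPP2-negative cells without doxazosin, and in 76.2% of ENPP2-high and 25% of ENPP2-negative cells with it. TBX2, a T-box repressor of the noradrenergic identity list, had 47.6 CPM in ENPP2-high against 4.77 CPM in ENPP2-negative cells, and 16.2 CPM in ENPP2-high and 1.47 CPM in ENPP2-negative cells with doxazosin (log2 3.28, SE 0.58, adjusted p = 0.0403). TBX2 was the only one of the 17 tested noradrenergic genes to pass. PHOX2A, a factor of the same list, had 26.4 CPM in ENPP2-high and 2.78 CPM in ENPP2-negative cells, and 15.6 CPM in ENPP2-high and 2.94 CPM in ENPP2-negative cells with doxazosin, but missed the threshold (log2 2.87, adjusted p = 0.139).

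CMBL, a hydrolase of the cytosol, showed the largest fitted difference among the genes that passed. It had 33.4 CPM in ENPP2-high and 1.99 CPM in ENPP2-negative cells, and 34.1 CPM in ENPP2-high and 3.68 CPM in ENPP2-negative cells with doxazosin (log2 3.64, SE 0.57, adjusted p = 0.019). Its level in ENPP2-negative cells rests on 5 counts in each library. ASS1, the urea cycle enzyme that joins citrulline and aspartate, had 534 CPM in ENPP2-high and 300 CPM in ENPP2-negative cells, and 543 CPM in ENPP2-high and 288 CPM in ENPP2-negative cells with doxazosin (log2 0.88, SE 0.13, adjusted p = 0.0127). The noncoding RNA LINC00682 had 281 CPM in ENPP2-high and 145 CPM in ENPP2-negative cells, and 333 CPM in ENPP2-high and 180 CPM in ENPP2-negative cells with doxazosin (log2 0.92, SE 0.17, adjusted p = 0.0438). These 2 were counted in at least 79.7% of cells of either class, so the difference lay in level more than in the share of cells.

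RCN1 and RPL23A were lower in ENPP2-high cells. RCN1, a calcium-binding protein of the endoplasmic reticulum, had 7.19 CPM in ENPP2-high and 34.6 CPM in ENPP2-negative cells, and 3.31 CPM in ENPP2-high and 41.9 CPM in ENPP2-negative cells with doxazosin (log2 -2.96, SE 0.53, adjusted p = 0.0405). RPL23A, a protein of the large ribosomal subunit with many pseudogenes, had 1026 CPM in ENPP2-high and 1512 CPM in ENPP2-negative cells, and 1310 CPM in ENPP2-high and 1818 CPM in ENPP2-negative cells with doxazosin (log2 -0.51, SE 0.09, adjusted p = 0.0288). Of 41 other cytosolic ribosomal genes tested, 0 passed by edgeR or DESeq2, 2 had an unadjusted p below 0.05 by edgeR, and the median was -0.05.

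S phase and G2/M genes were mostly negative in the fitted difference, but none passed the threshold by edgeR. ENPP2-high cells were called G1 in 32 of 139 cells (23.0%, exact interval 16.3 to 30.9) and ENPP2-negative cells in 4 of 74 (5.41%, 1.49 to 13.3) in the 13cRA library, while in the combination the counts were 27 of 151 ENPP2-high cells (17.9%, 12.1 to 24.9) and 1 of 40 ENPP2-negative cells (2.50%, 0.0633 to 13.2). Cells without 13cRA were called G1 in 17 of 235 (7.23%) with doxazosin and 14 of 328 (4.27%) with DMSO. The share of G1 calls was thus higher in ENPP2-high cells in both libraries. CDKN1A, of the G1 and cell cycle exit list, went the other way but missed the threshold (log2 -1.42, adjusted p = 0.0626, edgeR). It had 28.8 CPM in ENPP2-high and 85.5 CPM in ENPP2-negative cells, and 44.8 CPM in ENPP2-high and 109 CPM in ENPP2-negative cells with doxazosin. Of the 17 tested genes of that list 11 were positive and 6 negative, with a median of 0.07. Of 49 S phase genes tested, 40 had a negative difference and the median was -0.33. Of 55 G2/M genes 45 were negative with a median of -0.30, but 0 of either list passed by edgeR. The G2/M median was -0.49 in the 13cRA library but -0.04 in the combination, and 31 genes were negative in both. For S phase genes the medians were -0.36 and -0.25, and 32 were negative in both. At an unadjusted p below 0.05 the S phase and G2/M lists held 11 and 16 genes, and DESeq2 passed 0 and 1. MYCN, the amplified driver of the line, had 963 CPM in ENPP2-high and 1226 CPM in ENPP2-negative cells, and 831 CPM in ENPP2-high and 814 CPM in ENPP2-negative cells with doxazosin (log2 -0.16, adjusted p = 0.867). MKI67 likewise did not pass (log2 -0.19, adjusted p = 0.932).

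**Figure D3:**
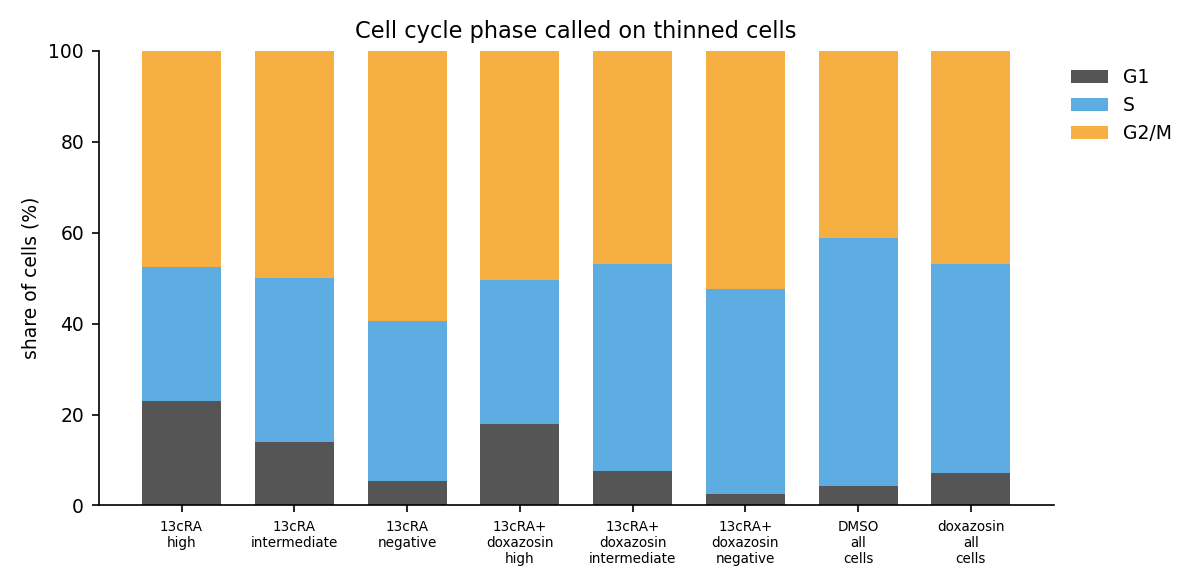
Share of thinned cells (%, y axis) called G1, S or G2/M from the S phase and G2/M gene scores, 1 bar per library and ENPP2 class. The G1 part is 23.0% and 17.9% in ENPP2-high cells, against 5.41% and 2.50% in ENPP2-negative cells.

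All 13 mitochondrially encoded mRNAs were positive in both libraries, with a median log2 difference of 0.32. The 5 that passed by edgeR were MT-CYB, MT-ATP6, MT-ND4, MT-CO3 and MT-CO2, and DESeq2 passed 2, MT-CYB and MT-ATP6. MT-CYB, the cytochrome b gene, had 6538 CPM in ENPP2-high and 4803 CPM in ENPP2-negative cells, and 4085 CPM in ENPP2-high and 3177 CPM in ENPP2-negative cells with doxazosin (log2 0.41, SE 0.06, adjusted p = 0.0127). Nuclear oxidative phosphorylation genes did not follow, with 0 of 40 passing by edgeR or DESeq2, 1 at an unadjusted p below 0.05 and a median of -0.01. The mitochondrial share of counts had a median of 14.5% in ENPP2-high against 12.2% in ENPP2-negative cells, and 10.4% in ENPP2-high against 9.81% in ENPP2-negative cells with doxazosin. Median depth before thinning was 78435 counts in ENPP2-high and 60848 in ENPP2-negative cells, and 237979 in ENPP2-high and 218567 in ENPP2-negative cells with doxazosin. The part of depth, mitochondrial share and phase in the differences between the classes was not tested beyond the alternatives given in the closing section.

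No difference passed the threshold among genes of the lysophosphatidic acid pathway, which does not exclude a difference. Of 7 receptor and phosphatase genes tested 0 passed by edgeR or DESeq2, 0 had an unadjusted p below 0.05, and the list's median was -0.07. LPAR1 had 40.4 CPM in ENPP2-high and 18.3 CPM in ENPP2-negative cells, and 17.5 CPM in ENPP2-high and 5.15 CPM in ENPP2-negative cells with doxazosin. The LPAR1 difference was thus positive in both libraries, with a wide standard error (log2 1.29, SE 0.60, unadjusted p = 0.051, adjusted p = 0.737, edgeR). LPAR2 had 21.6 CPM in ENPP2-high and 20.3 CPM in ENPP2-negative cells, and 20.1 CPM in ENPP2-high and 9.56 CPM in ENPP2-negative cells with doxazosin (log2 0.53, adjusted p = 0.900). LPAR3, LPAR4, LPAR5 and LPAR6 stayed below 2 CPM in every class.

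The classes were then set against cells that got no 13cRA, where the doxazosin library is the partner of the combination and the DMSO library that of 13cRA. Of 7852 genes tested, 99 differed for ENPP2-high cells (1.26%), 83 of them higher (1.06%) and 16 lower (0.204%). For ENPP2-negative cells 52 differed (0.662%), 38 of them higher (0.484%) and 14 lower (0.178%). Both comparisons use the same DMSO and doxazosin cells, so they are given side by side and no overlap between them is reported. A larger count in one is not a test of a larger response. Among 16 tested genes of a list that an earlier analysis of these libraries found raised by 13cRA, 4 passed between the ENPP2 classes (CCBE1, RGS16, SCG2 and SLIT2), 14 were positive and the median was 1.56. That list was drawn from these libraries and is not independent.

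SLIT2 and RGS16 were higher than without 13cRA in both classes. SLIT2 was higher in ENPP2-high (log2 4.89, SE 0.35) and ENPP2-negative cells (log2 2.40, SE 0.36, adjusted p = 0.0069, edgeR), against 5.38 CPM in doxazosin and 6.55 CPM in DMSO cells. RGS16 was higher in ENPP2-high (log2 6.38, SE 0.46) and ENPP2-negative cells (log2 4.59, SE 0.46), against 2.0 CPM in doxazosin and 0.986 CPM in DMSO cells. The ENPP2-negative cells of both libraries thus also lay above their partners for both genes.

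CCBE1 and SPP1 were near 0 without 13cRA, with 2 and 2 counts for CCBE1 and 2 and 3 counts for SPP1 over all doxazosin and DMSO cells, and both passed in both comparisons. RARB passed in ENPP2-high cells (log2 3.89, SE 0.69, adjusted p = 0.0139), with 2.63 CPM in doxazosin and 1.17 CPM in DMSO cells, but not in ENPP2-negative cells (log2 2.06, adjusted p = 0.323). CRABP2 also passed in ENPP2-high cells only (log2 1.55, SE 0.32, adjusted p = 0.035), and in ENPP2-negative cells its difference was -0.43 (adjusted p = 0.700). Other genes higher in both classes were PALMD, CCN3, NR0B1 and the noncoding LINC01587, which had 0 counts in both libraries without 13cRA. In PALMD, for example, ENPP2-high cells had 23.3 and 16.6 CPM and ENPP2-negative cells 24.2 and 13.2 CPM in the 13cRA library and the combination, against 0.628 CPM in DMSO and 0.501 CPM in doxazosin cells. The hormone stanniocalcin, STC1, and the microfibril protein MFAP4 were lower in both classes. MFAP4 had 96.1 and 235 CPM in ENPP2-high cells and 184 and 316 CPM in ENPP2-negative cells, against 831 CPM in DMSO and 805 CPM in doxazosin cells (log2 -2.45 for ENPP2-high and -1.81 for ENPP2-negative cells). A difference in call is not a difference between the classes, whose own test is given above.

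CTCFL, ANXA2, TPM2, CMBL, ASS1 and LINC00682 behaved otherwise. In ENPP2-negative cells all 6 were lower than without 13cRA. The ENPP2-negative cells are a part of their libraries picked by ENPP2, while all DMSO and doxazosin cells entered. A gene that varies with ENPP2 from cell to cell can thus lie low in them, and no fall of the whole library under 13cRA is shown. CTCFL was at 15.9 and 17.6 CPM in ENPP2-negative cells, against 70.4 CPM in DMSO and 73.1 CPM in doxazosin cells (log2 -2.10, SE 0.28, adjusted p = 0.0036, edgeR). ANXA2 was at 81.1 and 77.9 CPM in ENPP2-negative cells, against 219 CPM in DMSO and 266 CPM in doxazosin cells (log2 -1.58, SE 0.20, adjusted p = 0.0021). CMBL gave log2 -3.31 (adjusted p = 0.0069) and TPM2 log2 -2.0 (adjusted p = 0.0203). In ENPP2-high cells the same comparison gave CTCFL 0.90 (adjusted p = 0.132), ANXA2 0.60 (adjusted p = 0.195), TPM2 0.62 (adjusted p = 0.477) and CMBL 0.34 (adjusted p = 0.830), none of which passed. CNTNAP2, a neurexin-family adhesion protein, had 8.35 and 13.2 CPM in ENPP2-negative cells against 71.6 CPM in DMSO and 67.3 CPM in doxazosin cells (log2 -2.75, adjusted p = 0.0155), and TAGLN2, an actin binder, had 8.35 and 7.35 CPM in ENPP2-negative cells against 33.4 CPM in DMSO and 34.8 CPM in doxazosin cells (log2 -2.09, adjusted p = 0.0339). RCN1 in turn lay above the no 13cRA level in ENPP2-negative cells by 1.5 on the log2 scale, without passing (adjusted p = 0.213).

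**Figure D4:**
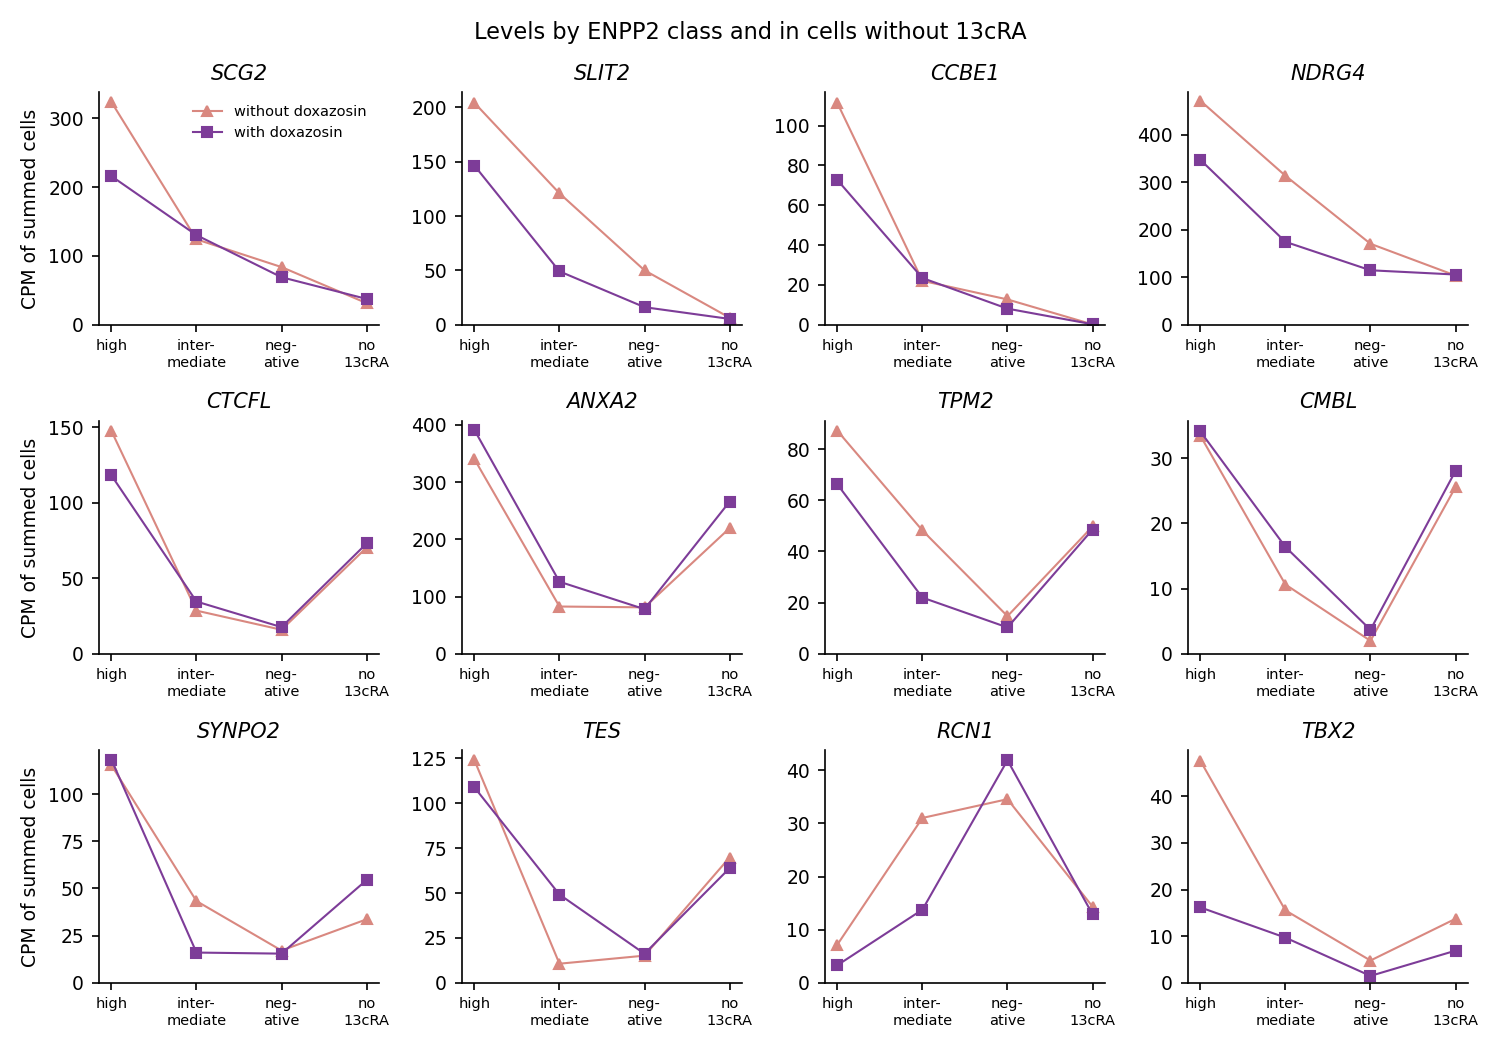
Levels (CPM of summed cells, y axis from 0) of 12 genes in ENPP2-high, intermediate and ENPP2-negative cells and in cells without 13cRA, triangles without doxazosin and squares with it. SCG2, SLIT2, CCBE1 and NDRG4 are lowest without 13cRA, while CTCFL, ANXA2, TPM2 and CMBL are lowest in ENPP2-negative cells.

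Cells without 13cRA, none of which was ENPP2-high, come from libraries that took no part in forming the classes. The doxazosin and DMSO cells were divided by whether a CTCFL count remained after thinning, a division chosen after the values above were seen and given as a description with no test. CTCFL was counted in 126 of 235 doxazosin cells (53.6%) and 175 of 328 DMSO cells (53.4%). Of the 20 other nuclear genes that passed between the ENPP2 classes, 17 (85.0%) had the direction of that comparison in both libraries, against 2516 of all 7843 genes tested (32.1%). The 3 others were CCBE1, SLIT2 and RGS16. Some of these signs rest on few counts. SPP1, among the 17, had 3 counts over all DMSO and 2 over all doxazosin cells, and CCBE1 had 2 and 2. RGS16 had 11 counts in DMSO and 16 in doxazosin cells. CTCFL was itself picked from the genes that passed, so 17 against 3 does not establish a division of the genes.

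Values of 5 genes are given by CTCFL count. TES had 102 CPM in cells with CTCFL and 20.2 CPM in cells without in the doxazosin library, and 102 CPM with and 32.9 CPM without in the DMSO library. TPM2 had 61.4 CPM with and 33.7 CPM without in doxazosin, and 71.6 CPM with and 24.8 CPM without in DMSO cells. ANXA2 had 340 CPM with and 179 CPM without in doxazosin, and 286 CPM with and 143 CPM without in DMSO cells. RCN1, which was lower in ENPP2-high cells, was also lower with CTCFL, at 7.24 CPM with and 19.4 CPM without in doxazosin, and 9.41 CPM with and 20.0 CPM without in DMSO cells. SLIT2, by contrast, had 2.80 CPM with and 8.36 CPM without in doxazosin and 7.56 CPM with and 5.38 CPM without in DMSO cells. TES, TPM2, ANXA2 and RCN1 thus had the sign of the ENPP2 comparison in both libraries, and SLIT2 did not.

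**Figure D5:**
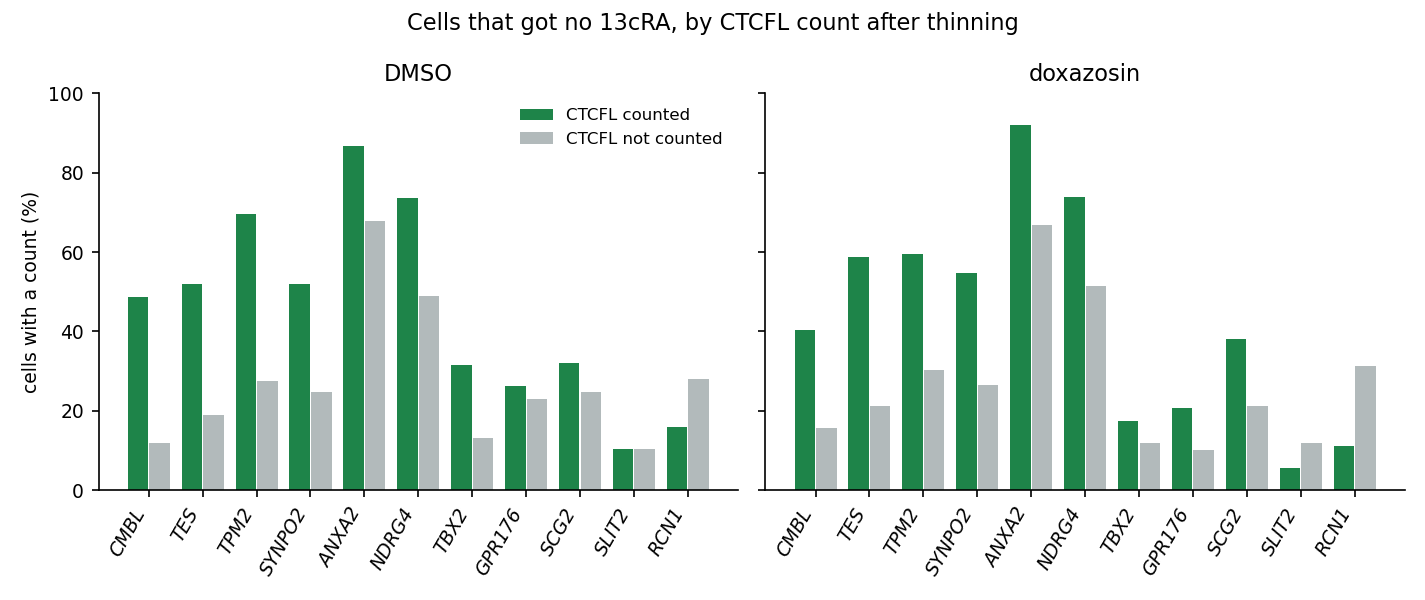
Share of thinned cells (%) with a count of each of 11 genes in cells that got no 13cRA, green for cells with a CTCFL count and grey for cells without, DMSO on the left and doxazosin on the right. The bars of CMBL, TES, TPM2, SYNPO2 and ANXA2 are higher with CTCFL, and those of RCN1 are higher without.

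The 5 genes most like ENPP2 by Spearman rho over thinned cells were SYNPO2 (0.46 in the 249 cells of the 13cRA library, 0.61 in the 270 of the combination), ANXA2 (0.50, 0.56), CTCFL (0.49, 0.57), TPM2 (0.46, 0.55) and NDRG4 (0.48, 0.51). ENPP2 formed the classes, so these values restate the comparison of the classes and support nothing further, and cells of a library share its preparation and sequencing. In libraries without 13cRA, rho with ANXA2 was 0.37 in doxazosin and 0.50 in DMSO cells for TPM2, and 0.49 and 0.41 for CTCFL. For RPL23A it was -0.41 and -0.44. Over all genes the 99th percentile of rho with ANXA2 was 0.21 and 0.18, and the 1st percentile -0.17 and -0.14.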

How the data were processed

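Counts per gene and cell were deposited by the authors as whole numbers for 60651 genes and 1287 cells, from ICELL8 wells without molecular identifiers, so intervals cover counting error only. The submitters' processing notes name bcl2fastq, Seurat 4.3.0, featureCounts, fastp 0.23.3 and STAR 2.7.8a, along with 2 genome versions, GRCh37 and GRCh38.p13, and which annotation was counted is not given in the sources used here. No doublet caller was run, since wells were imaged for single cells, per the labels.

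Counts were thinned to 34000 per cell and summed per library and ENPP2 class, and library totals were the sizes. Genes needed a mean of 10 CPM and a count in 10% of thinned cells; ENPP2 was left out. edgeR 4.0.16 (R 4.3.3) fitted library and class to 6 sums, or background and class to 8 sums with cells that got no 13cRA, with Benjamini-Hochberg adjustment at 0.05. CPM per library used a pseudocount of 1 in log2 differences. The fit was also run on simulated counts. These were drawn independently with the same spread for all genes, so they do not mimic classes cut from the same library. Phases came from scanpy 1.11.5. Named genes were the 12 highest and 12 lowest passing genes, up to 4 per list, and a fixed set. Members and lists were chosen with earlier results of these data known. The sums of a library come from the same library, which is the block in the fit. Some genes that counts include are not reported here by name.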

Additional observations from a re-analysis of the deposited data

How the results depend on the processing

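The counts reported were 26 genes between ENPP2-high and ENPP2-negative cells, 52 for ENPP2-negative and 99 for ENPP2-high cells against no 13cRA. For the first, the alternatives gave 0 on unthinned counts (402 at an unadjusted p below 0.05), 1 in G1 cells (4 and 1 ENPP2-negative cells), 2 with no replicate block, 4 in cells called S or G2M (chosen after seeing the data), 6 with high at 50 CPM, 13 at 60000 counts or more, 14 with DESeq2 size factors, 45 with DESeq2 and 45 in cells in the middle of the range of genes detected, 67 with high at 200 CPM and 166 with 4 sums. TMM factors, a filter of 1 CPM, another seed, 2000 genes and 8 sums gave 19 to 36. For ENPP2-negative cells against no 13cRA the counts were 17 with no replicate block, 24 unthinned, 92 at 200 CPM and 120 with DESeq2. For ENPP2-high cells they were 32 with no replicate block, 41 unthinned, 47 in S or G2M cells, 59 at 50 CPM, 158 at 200 CPM and 163 with DESeq2. The ENPP2-negative share of the combination was 31.9% on thinned counts. Signs turned in G1 cells for TUBA4A (0.047), IGSF1 (0.65), MKI67 (6.54), CDKN1B (-0.40), NR0B1 (-0.21), STMN2 (-0.092) and CLDN5 (-0.032), and for MKI67 at 60000 counts (0.13) and in S or G2M cells (0.037). The cause was not tested. Leaving out a library leaves no residual degrees of freedom, so only values of single libraries can be given (ANXA2, 2.05 to 2.31). Over 16 alternatives, the genes that passed did so in 14 (ANXA2, CTCFL), 13 (CCBE1, NDRG4), 12 (SCG2, SLIT2), 11 (ASS1, SYNPO2, TPM2, TUBA1A), 10 (CMBL), 9 (GPR176, TES), 8 (RCN1, RGS16, SPP1), 7 (TBX2, LINC00682, MT-ATP6, MT-CYB, MT-ND4), 6 (RPL23A, MT-CO3) and 5 (MT-CO2).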

Other observations

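Median log2 differences between ENPP2-high and ENPP2-negative cells by chromosome, over 4648 genes at 30 CPM or more, ranged from -0.09 to 0.02 over 23 chromosomes, and the called nuclear genes were spread over 15 of them. MYC and nucleolar genes had a median of -0.14 and glycolytic genes of -0.14, with 0 of 27 and 0 of 25 passing by edgeR or DESeq2 and 4 and 7 at an unadjusted p below 0.05.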
